A study of Danio rerio with 9 samples.

Results

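Interferon and innate antiviral response genes were examined in whole zebrafish embryos of 3 groups, which received a morpholino labelled control, dhps or eif5a1/2. The group was set as a list of 39 gene symbols, and each was looked up among the 24614 genes of the deposited count table. Of the 39, 33 were found by symbol, 17 had enough reads to be tested for a difference between groups and 16 did not. Each of the 3 groups had 3 libraries of polyadenylated RNA, collected 24 hours after the injection according to the protocol notes. A morpholino is a synthetic antisense strand that pairs with a chosen transcript and stops it from being translated or spliced. The dhps gene encodes deoxyhypusine synthase, which begins the making of hypusine on the translation factor eIF5A, and the eif5a1/2 morpholino is named for the factor itself. All embryos, the controls included, carried a morpholino, and no uninjected embryos were analysed here. The strain, the dose, the number of embryos in a library and whether replicates were separate clutches were not stated in the labels, so the p-values measure the spread between these libraries, which may be partly technical.

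Vertebrate cells sense viral RNA with helicases of the RIG-I family and answer with interferons. Interferons bind receptors on the cell surface, the kinases bound there phosphorylate STAT factors, and these enter the nucleus with IRF9 to switch on a large set of induced genes. The induced set includes proteins that block viral replication, such as the Mx GTPases and the IFIT RNA-binding proteins, and the machinery that cuts peptides and shows them on MHC class I. SOCS1 and USP18 close the loop by damping the receptor signal. A zebrafish embryo relies on this innate arm, since it has no mature lymphocytes.

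Counts per library summed to between 15952644 and 17482536. A level is given below as CPM, the count divided by the scaled library size and brought to a common total, and 3 reads, the limit that a count of 0 allows, amount to 0.14 to 0.23 CPM (counting error only). The level of eif5a fell in eif5a1/2 against control (log2 fold change -2.59 ± 0.16 SE, edgeR adjusted p = 0.000209), and that of dhps differed by -0.62 ± 0.13 in dhps against control (adjusted p = 0.0508). Of 4 genes listed as targets, eif5a alone was called in eif5a1/2 against control. The libraries also differed in how their counts relate to transcript length. The slope of log2 counts on length was positive in control 2 (0.0593), in dhps 1, 2 and 3 (0.128, 0.0387 and 0.0426) and in eif5a1/2 2 (0.14), and it lay between -0.126 and -0.067 in the other 4 libraries. Control 2 and eif5a1/2 2 thus stood apart from the other libraries of their own groups, and control 2 was also apart in several genes of the interferon response. Results of members that rest mostly on these libraries are given with and without them, and counts for the other gene lists use all 9 libraries. Of the 17031 genes tested, 220 were called in dhps against control, 26 in eif5a1/2 against control and 302 in eif5a1/2 against dhps, where called means an adjusted p under 0.05 from edgeR's quasi-likelihood test.

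Many genes of the antiviral program had few reads. Of the 33 genes found, the 16 that could not be tested reached at most 22 reads in any library, and 8 of them had fewer than 10 reads over all 9 libraries. The RNA sensors ddx58 (RIG-I) and dhx58 (LGP2) had 1 and 2 reads in all. The sensor ifih1 (MDA5) had 7, 9 and 5 reads in the controls, 8, 4 and 8 in dhps and 3, 12 and 4 in eif5a1/2. These counts overlapped between all groups. The antiviral gene rsad2, which encodes viperin, had 0, 2 and 1 reads in the controls, 0, 1 and 2 in dhps and 0, 1 and 2 in eif5a1/2. The kinase genes pkz and eif2ak2, which halt translation when they sense foreign nucleic acid, had 15 and 4 reads over all libraries, with pkz at 2, 2 and 1 reads in the controls, 1, 4 and 2 in dhps and 0, 2 and 1 in eif5a1/2. The GTPase gene mxa had 5, 9 and 2 reads in the controls, 6, 6 and 11 in dhps and 3, 10 and 4 in eif5a1/2. No group stood apart from another in any of these genes, and differences were not detectable at this depth. The negative regulator usp18, the kinase gene cmpk2 and the MHC class I transactivator nlrc5 had 13, 27 and 47 reads in all. Of these, nlrc5 had 7, 8 and 6 reads in the controls, 4, 6 and 8 in dhps and 1, 5 and 2 in eif5a1/2. Its eif5a1/2 libraries lay under the controls, with an adjusted p of 0.589 in a fit with no filter. Of the interferon genes themselves, ifnphi1 and ifnphi3 were found in the table, and neither passed 0.155 CPM in any library.

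A few genes carried nearly all of the signal of the group. On the length-corrected TPM scale of the deposited table, isg20 averaged 56.0 ± 7.7 in the controls (SD, n = 3) and ifi30 averaged 55.9 ± 10, against 6.73 ± 8.6 for b2m, 3.42 ± 0.99 for irf9 and 2.09 ± 2.9 for isg15. Every other member averaged at most 1.42 TPM there, the value of mxc. Without isg20 and ifi30, the CPM of the other 31 genes summed to 32.6, 67.9 and 35.5 in control 1, 2 and 3, to 32.6, 34.2 and 36.1 in dhps, and to 25.7, 27 and 26.7 in eif5a1/2. The sum was highest in control 2 and lower in all eif5a1/2 libraries than in any other library. Without control 2, the control and dhps sums overlapped. The dhps sums include 3.52, 4.05 and 3.66 CPM from rnf213b, described below, which gave 0.358 and 0.466 in control 1 and 3. In bulk RNA of a whole embryo, fewer cells of a type and less RNA per cell cannot be told apart.

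**Figure D1:**
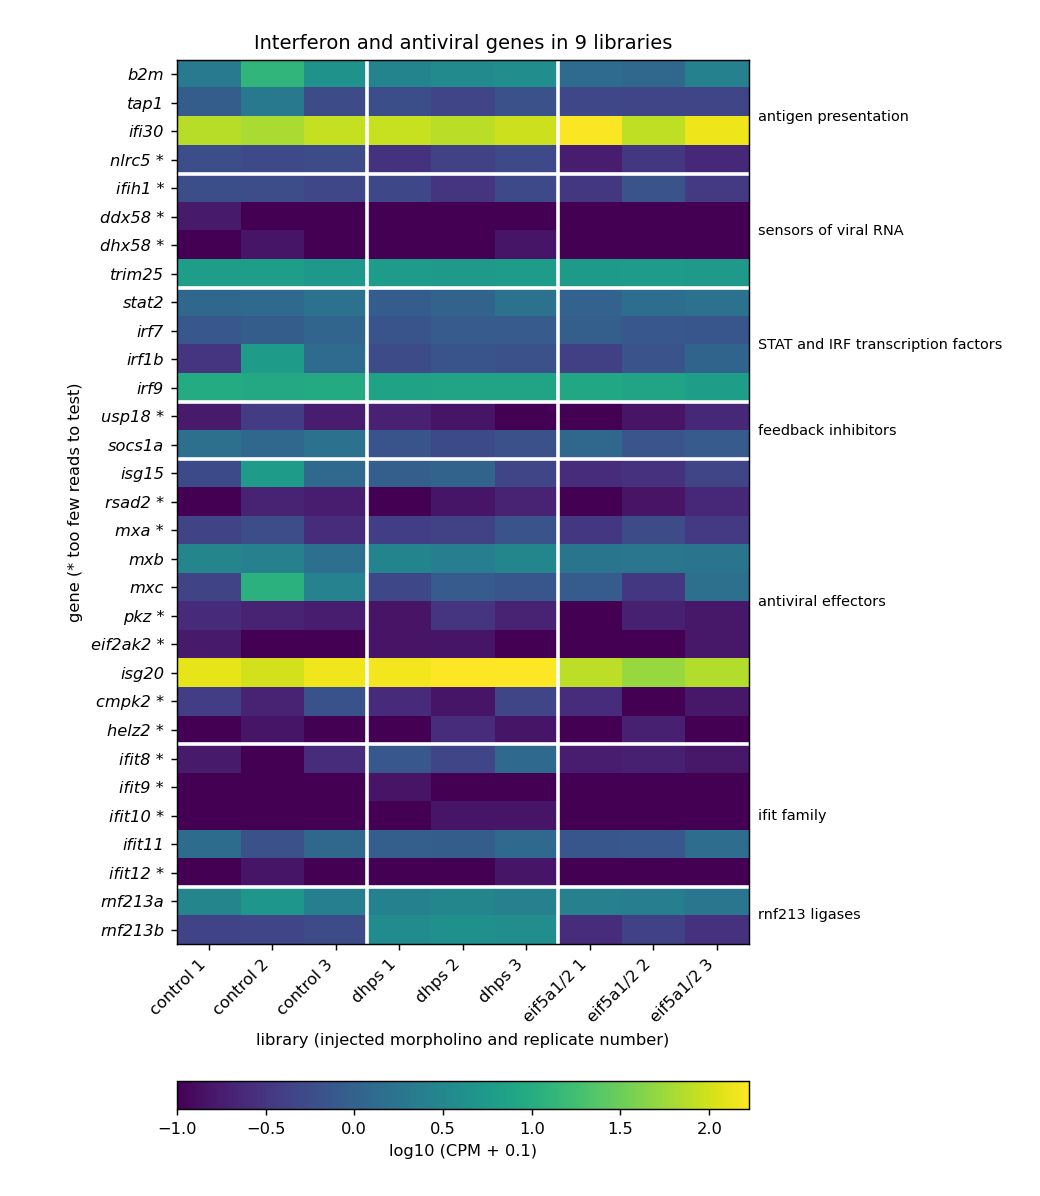
Level of 31 genes in each of 9 libraries, as log10 of CPM with 0.1 added, with genes in rows ordered by role and libraries in columns; an asterisk marks the 15 genes with too few reads to test. The rows of isg20 and ifi30 stand above the rest, control 2 is bright for b2m, irf1b, isg15 and mxc, and rnf213b is bright in the 3 dhps libraries.

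The clearest difference in the group was that of rnf213b, which rose in dhps and was lowest in eif5a1/2. It is 1 of 2 zebrafish copies of RNF213, a giant E3 ubiquitin ligase that in human cells acts against intracellular bacteria and viruses, and whose human variants are linked to moyamoya disease of the brain vessels. Its level was 0.358, 0.367 and 0.466 CPM in control 1, 2 and 3, then 3.52, 4.05 and 3.66 in dhps, and 0.155, 0.328 and 0.188 in eif5a1/2. All 3 dhps libraries lay far above the other 6, and the groups did not overlap in any comparison. The difference of dhps from control was 3.23 ± 0.31 on the log2 scale, a 9.35-fold rise (adjusted p = 0.00172), and that of eif5a1/2 from dhps was -3.96 ± 0.32 (adjusted p = 0.000319). Both calls held with each of the 9 libraries left out in turn, with log2 values of 3.16 to 3.34 and of -4.38 to -3.79. Against control, the value of eif5a1/2 was -0.74 ± 0.37 (adjusted p = 0.733), from counts of 2 to 7 reads a library. The controls had 5, 7 and 6 reads and eif5a1/2 had 2, 7 and 3, so the gene was tested only because of its reads in dhps. On the deposited TPM scale it averaged 0.207 ± 0.0058 in dhps, 0.0133 ± 0.0058 in the controls and 0.01 ± 0.01 in eif5a1/2 (SD, n = 3).

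The other copy, rnf213a, did not move with rnf213b. It stood at 2.86, 4.82 and 2.33 CPM in the controls, 2.48, 2.93 and 2.41 in dhps and 2.47, 2.3 and 1.76 in eif5a1/2. The control and dhps libraries overlapped, with control 2 the highest of all 9, and the difference of dhps from control was -0.37 ± 0.29 (adjusted p = 0.453). These were the only members with counts that were not whole numbers (70.8, 75.61 and 69.98 for rnf213b in dhps), which expected counts become when reads are split between sequences. Which sequences shared reads with them was not tested, and the level of each copy is uncertain. Summed over both copies, the level was 3.22, 5.19 and 2.8 CPM in the controls, 6.01, 6.99 and 6.07 in dhps and 2.63, 2.63 and 1.95 in eif5a1/2. The dhps libraries were still the highest 3 and the eif5a1/2 libraries the lowest 3 in that sum.

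The second called member, isg20, encodes an exonuclease that degrades viral RNA. Its level was 128, 101 and 144 CPM in the controls, 148, 164 and 167 in dhps and 79.3, 52.4 and 70.1 in eif5a1/2. The 3 groups did not overlap, with dhps highest and eif5a1/2 lowest. It fell in eif5a1/2 against dhps, by 1.25 ± 0.18 on the log2 scale (adjusted p = 0.0107), and this call was kept in 5 of 9 fits that left out a library, with adjusted p from 0.00666 to 0.0819. Those that lost it left out dhps 1, dhps 2, dhps 3 or eif5a1/2 3, with adjusted p of 0.0503, 0.0581, 0.0686 and 0.0819, and log2 values over the 9 fits stayed between -1.38 and -1.1.

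Against control, isg20 depended on the model. The eif5a1/2 libraries differed from control by -0.89 ± 0.18 (edgeR adjusted p = 0.136), not called. Control and eif5a1/2 libraries with the same number deviated together (correlations 0.403, 0.76 and 0.318). A pair of unlike number, control 3 and eif5a1/2 1, did so too (0.597), and control 2 and eif5a1/2 2 shared a positive length slope. The labels give no pairing. With the number as a block in the fit of all 9 libraries, isg20 differed by -0.89 ± 0.16 (adjusted p = 0.145), not called. In a block fit of the 6 control and eif5a1/2 libraries alone, added after the data were seen, it differed by -0.89 ± 0.12 (adjusted p = 0.00357). The authors' deposited table gives -0.89 with a q-value of 0.0375. In dhps against control the difference was 0.36 ± 0.18 (adjusted p = 0.292), and it became 0.65 ± 0.093 (adjusted p = 0.000217) with each library's length slope in the model. That model called 948 of 17031 genes, against 220 in the main fit. The slopes come from these same counts and all dhps slopes are positive, so slope and morpholino are partly confounded there. On the deposited TPM scale the mean of isg20 was 111 ± 3.1 in dhps (SD, n = 3), beside the 56.0 in the controls and 36.5 ± 5.0 in eif5a1/2. TPM and CPM compare the groups differently. The gene trim25, at -0.05 ± 0.14 in dhps against control by edgeR, averaged 1.22 ± 0.5 TPM in the controls and 1.75 ± 0.19 in dhps. How much of the TPM difference of isg20 comes from the scale was not tested.

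The lysosomal thiol reductase gene ifi30, which unfolds proteins for presentation on MHC class II, had its highest levels in eif5a1/2 libraries. It was at 75.7, 65.7 and 87.8 CPM in the controls, 88.4, 78.0 and 96.0 in dhps and 162, 82.3 and 138 in eif5a1/2. The libraries eif5a1/2 1 and eif5a1/2 3 were above all others, while eif5a1/2 2 lay within the range of the controls. The difference of eif5a1/2 from control was 0.74 ± 0.23 (adjusted p = 0.356), not called. With the replicate number as a block in the fit of all 9 libraries it was 0.7 ± 0.17 (adjusted p = 0.283), not called. In the block fit of the control and eif5a1/2 libraries alone, added after the data were seen, it was 0.7 ± 0.15 (adjusted p = 0.0287). Without eif5a1/2 2 the difference was 0.98 ± 0.15 from control (adjusted p = 0.057), and the difference from dhps went from 0.54 ± 0.23 (adjusted p = 0.318) to 0.78 ± 0.15 (adjusted p = 0.0243). Without both eif5a1/2 2 and control 2 these differences were 0.88 ± 0.14 (adjusted p = 0.00846) and 0.78 ± 0.12 (adjusted p = 0.000657). That fit called 176 of 17102 genes in eif5a1/2 against control and 4918 in eif5a1/2 against dhps. In it length slope and the dhps morpholino cannot be told apart. In dhps against control the difference was 0.2 ± 0.23 (adjusted p = 0.612). With the length slope in the model it was 0.55 ± 0.13 (adjusted p = 0.0132) in dhps and 0.79 ± 0.11 (adjusted p = 0.000326) in eif5a1/2. That model called 948 and 793 of 17031 genes in these comparisons, and has the limit given for isg20. On the deposited TPM scale the means of ifi30 were 55.9 ± 10 in the controls, 98.4 ± 14 in dhps and 109 ± 4.9 in eif5a1/2 (SD, n = 3). On that scale trim25, which was steady by CPM, was also higher in dhps than in the controls. This gene and mxc, irf1b, rnf213a and ifit8 are described in full because their values were seen.

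**Figure D2:**
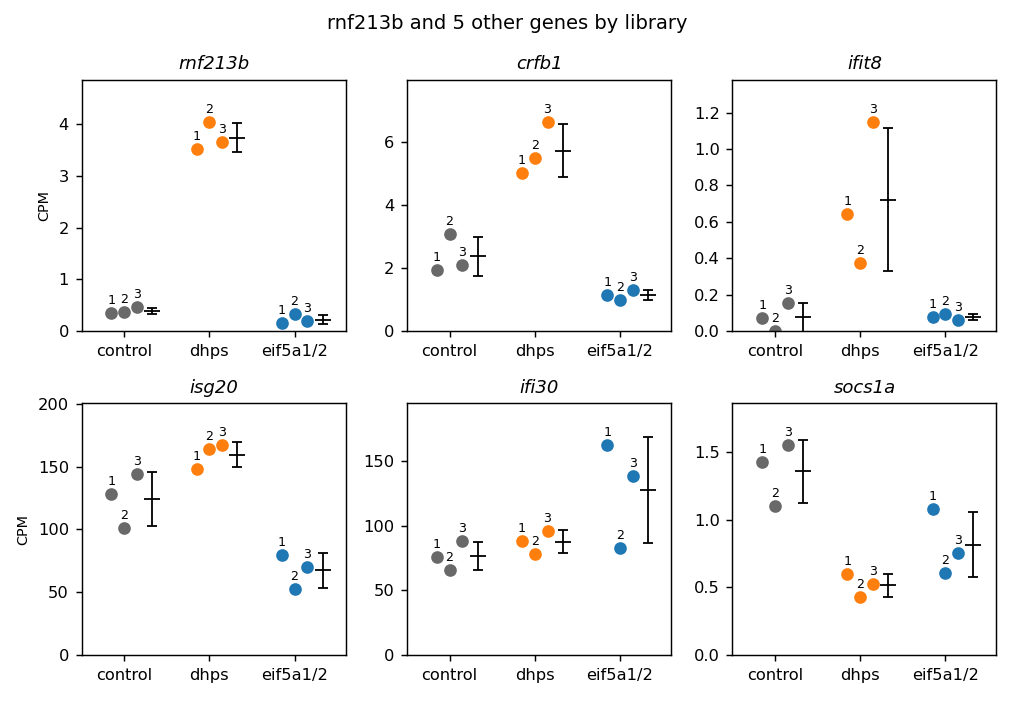
Level in CPM (vertical axes, linear, from 0) of rnf213b, crfb1, ifit8, isg20, ifi30 and socs1a in 3 groups; points are libraries with their number, and the black mark beside each group is the mean with its SD (n = 3). The dhps libraries of rnf213b lie at 3.52 to 4.05 with all others at or under 0.466, and the eif5a1/2 libraries of isg20 lie at 52.4 to 79.3, under all others.

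Of the feedback inhibitors, socs1a was the one with enough reads to test. SOCS1 binds the receptor kinases and stops the interferon signal. Its level was 1.43, 1.1 and 1.55 CPM in the controls, 0.596, 0.427 and 0.524 in dhps and 1.08, 0.609 and 0.753 in eif5a1/2. The 3 dhps libraries were the lowest, the 3 controls the highest and eif5a1/2 between them, with no overlap between any pair of groups. The difference from control was -1.38 ± 0.34 in dhps (adjusted p = 0.0971) and -0.75 ± 0.34 in eif5a1/2 (adjusted p = 0.559), and neither was called. The gene has 8 to 21 reads a library. Leaving out a library gave -1.52 to -1.27 in dhps, with no call. Without both control 2 and eif5a1/2 2 the value in dhps was -1.51 ± 0.39 (adjusted p = 0.00751). That fit called 6340 of 17102 genes in dhps against control, so a call there says little about a single gene. In it length slope and the dhps morpholino cannot be told apart.

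Of the transcription factors that carry the signal, irf9, stat2 and irf7 were present, and none of these was called in any comparison. The factor gene irf1b is given further below. The level of irf9, a DNA-binding partner of the STAT factors, was 9.51, 8.75 and 9.16 CPM in the controls, 7.0, 7.58 and 7.43 in dhps and 8.2, 7.59 and 6.15 in eif5a1/2. By CPM all 3 controls were above the other 6 libraries, by a small margin. The difference was -0.32 ± 0.14 in dhps (adjusted p = 0.248) and -0.32 ± 0.14 in eif5a1/2 (adjusted p = 0.533), and both comparisons share the same control libraries. With libraries scaled by their totals alone, the value in dhps was 0.05 while the median of all genes was 0.365, so that irf9 was at -0.31 relative to it. On the deposited TPM scale irf9 averaged 3.42 ± 0.99 in the controls, 4.12 ± 0.11 in dhps and 3.37 ± 1.3 in eif5a1/2 (SD, n = 3). The controls were thus not the highest group there.

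The level of stat2 was 1.14, 1.15 and 1.48 CPM in the controls, 0.794, 0.96 and 1.52 in dhps and 0.928, 1.36 and 1.51 in eif5a1/2. That of irf7, which drives interferon genes once phosphorylated, was 0.644, 0.786 and 1.01 CPM in the controls, 0.596, 0.747 and 0.733 in dhps and 0.851, 0.656 and 0.628 in eif5a1/2. Both genes overlapped between all groups, with log2 differences of -0.23 to 0.22 and SEs of 0.33 or 0.34. The receptor-bound kinase gene jak1, from a list of other pathway genes, was at 0.644, 7.29 and 0.466 CPM in the controls, 7.74, 5.87 and 6.91 in dhps and 0.541, 12.0 and 2.45 in eif5a1/2. Its 5 highest libraries were the 5 with a positive length slope, whatever the morpholino.

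The members isg15, mxc, irf1b, b2m and tap1 were high in a single control library. The ubiquitin-like modifier isg15, an early marker of the interferon response, was at 0.429, 5.98 and 1.17 CPM in control 1, 2 and 3, at 0.844, 0.96 and 0.366 in dhps and at 0.155, 0.188 and 0.377 in eif5a1/2. Control 2 exceeded the next library, control 3, by 5.13 times. The Mx GTPase gene mxc was at 0.358, 11.5 and 2.56 CPM in the controls, 0.397, 0.747 and 0.628 in dhps and 0.773, 0.234 and 1.44 in eif5a1/2. The transcription factor gene irf1b was at 0.215, 5.98 and 1.24 CPM in the controls, 0.447, 0.587 and 0.524 in dhps and 0.309, 0.563 and 1.0 in eif5a1/2. In both genes control 2 was highest and control 3 next among the controls, while control 1 lay within the range of the other groups or below it.

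The antigen presentation genes b2m and tap1 were also highest in control 2, while ifi30 had its lowest control level there. The level of b2m, the light chain of MHC class I, was 2.0, 13.3 and 4.43 CPM in the controls, 2.73, 3.41 and 3.66 in dhps and 1.24, 1.08 and 2.51 in eif5a1/2. That of tap1, a subunit of the transporter that loads peptides, was 0.787, 1.89 and 0.466 CPM in the controls, 0.496, 0.373 and 0.524 in dhps and 0.387, 0.375 and 0.377 in eif5a1/2. The next highest control was control 3 for b2m and control 1 for tap1. The partner subunit tap2a, found in the table under the symbol abcb3l1 of the same gene ID, had 0, 27 and 1 reads in the controls and at most 1 read in each of the other 6 libraries. Among genes for the immunoproteasome from a list of other pathway genes, psmb10 and psme2 were highest in control 2 as well. The levels were 0.0715, 1.36 and 0.155 CPM in control 1, 2 and 3 for psmb10, a catalytic subunit, with at most 0.126 elsewhere. For psme2, a subunit of its activator, they were 0.787, 6.03 and 2.56 CPM, with at most 1.19 elsewhere. Others were closer to control 3 or under it: psmb9a was at 1.73 CPM in control 2 and 1.32 in control 3, psme1 at 5.61 and 4.27, and psmb8a at 0.891 and 1.17.

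Control 2 was more than 2-fold above both other controls in 6 of the 17 tested members, among them isg15, irf1b, mxc, b2m and tap1, or 35.3%, and in 8.46% of all genes tested. No tested member was that far above the other controls in control 1 or control 3. When 14916 genes with at least 20 reads in control 2 were ordered by how far that library exceeded the next highest of all 9 (CPM with 0.25 added), isg15, mxc, irf1b and psmb10 took ranks 9 to 12, b2m rank 20, psme2 rank 33 and tap1 rank 36. Genes ahead of them included cd83, a surface protein of activated immune cells, at 6.76 CPM in control 2 and at most 0.932 elsewhere, and hp, the haemoglobin-binding acute phase protein haptoglobin, at 1.99 CPM and at most 0.157 elsewhere. This pattern was chosen after the values were seen and is a description of 1 library. What set control 2 apart was not tested.

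**Figure D3:**
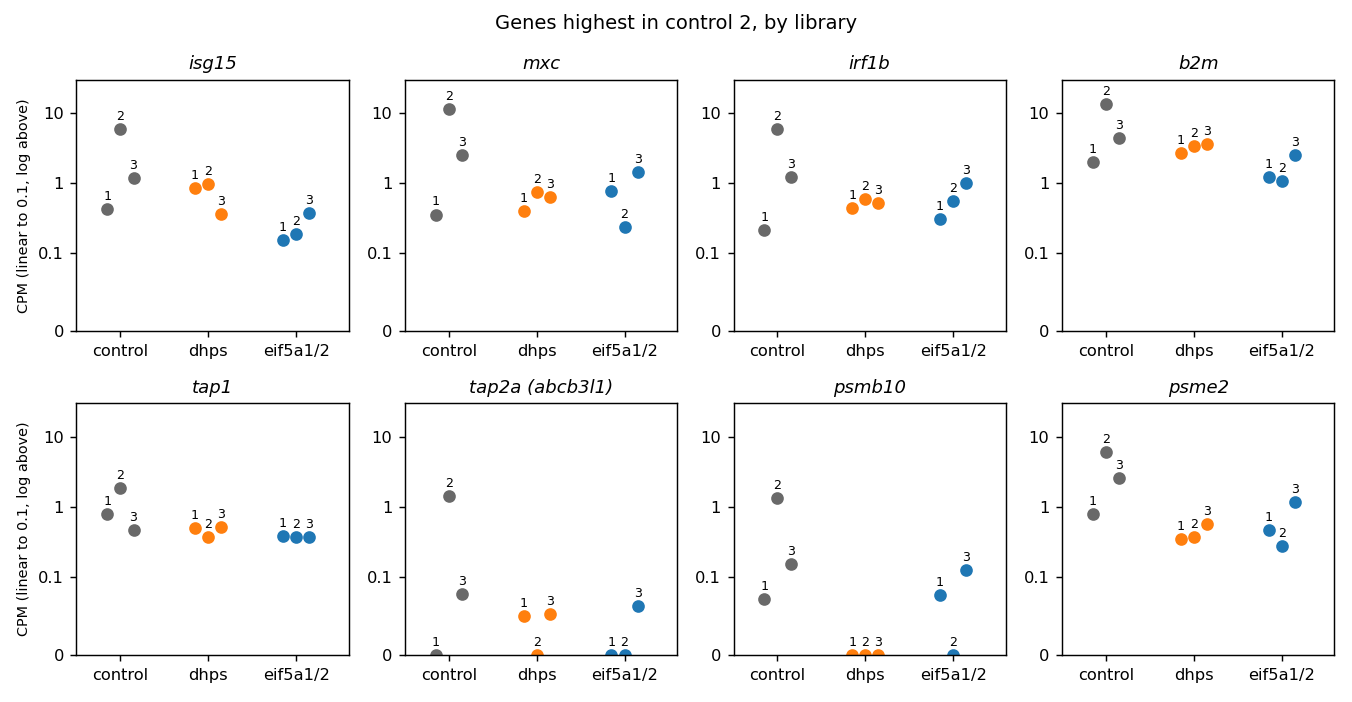
Level in CPM of isg15, mxc, irf1b, b2m, tap1, tap2a, psmb10 and psme2 in 3 groups, on an axis that is linear up to 0.1 and logarithmic above; points are libraries with their number. Control 2 is the highest of 9 libraries in each panel, at 13.3 for b2m and 11.5 for mxc.

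These genes had large negative differences that were smaller without that library. In dhps against control the log2 difference was -1.82 ± 0.82 for isg15, -3.04 ± 1.0 for mxc, -2.27 ± 0.91 for irf1b, -1.02 ± 0.58 for b2m and -1.19 ± 0.5 for tap1, with adjusted p of 0.178 to 0.334. Without control 2 the values were -0.13, -1.29, -0.47, 0.02 and -0.44, with adjusted p of 0.297 to 0.973. The values of eif5a1/2 against control were -3.39 ± 0.94 for isg15, -2.6 ± 1.0 for mxc, -1.99 ± 0.9 for irf1b, -2.05 ± 0.62 for b2m and -1.48 ± 0.52 for tap1, with adjusted p of 0.297 to 0.563. Without control 2 they were -1.69, -0.85, -0.19, -1.0 and -0.72. The values for isg15 and b2m in eif5a1/2 were thus smaller without control 2 and still negative, with adjusted p of 0.28 and 0.296.

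**Figure D4:**
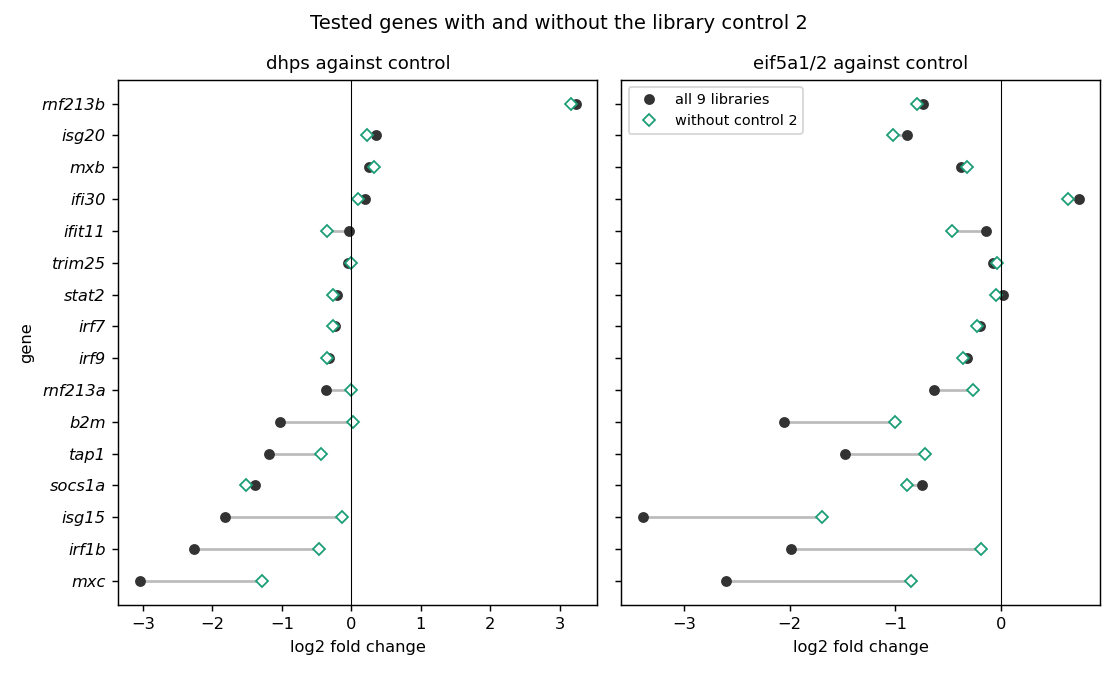
Log2 fold change (horizontal axis) of 16 tested genes in dhps against control and in eif5a1/2 against control, from all 9 libraries (filled circles) and without control 2 (open diamonds). Among the genes drawn, those of isg15, irf1b, mxc, b2m and tap1 move toward 0 without control 2.

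Among the low-count members, ifit8 was seen mostly in dhps. It encodes a member of the IFIT family, whose mammalian relatives bind viral RNA, and it had 1, 0 and 2 reads in the controls, 13, 7 and 22 in dhps and 1, 2 and 1 in eif5a1/2. Every dhps library was above all others. Summed over 3 libraries, dhps held 42 reads against 3 in control, a ratio of 11 after scaling (exact 95% interval 3.54 to 55.9, counting error only), and against 4 in eif5a1/2, a ratio of 9.09 (3.3 to 34.9). The gene was too low for the main test. In a fit with no filter its adjusted p was 0.109 in dhps against control and 0.108 in eif5a1/2 against dhps. Of the other IFIT genes, ifit11 was tested and overlapped between all groups. It was at 0.524 to 1.29 CPM in the controls, 0.8 to 1.15 in dhps and 0.619 to 1.32 in eif5a1/2, while ifit9, ifit10 and ifit12 had 1, 2 and 2 reads in all, too few to show a profile. In a RefSeq gene table of another assembly, used for gene order, ifit9, ifit10 and ifit11 are direct neighbours.

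Among the remaining effectors and sensors, trim25, an E3 ligase that activates RIG-I, was the steadiest. Its level was 5.13 to 6.36 CPM in the controls, 5.44 to 5.91 in dhps and 5.52 to 5.81 in eif5a1/2, with log2 differences of -0.07 to -0.02 and an SE of 0.14. The GTPase gene mxb was at 2.79, 2.41 and 1.4 CPM in the controls, 2.78, 2.29 and 2.88 in dhps and 1.7, 1.73 and 1.63 in eif5a1/2. The eif5a1/2 libraries lay under all dhps libraries, and control 3 was lower still. The difference of eif5a1/2 from dhps was -0.65 ± 0.27 (adjusted p = 0.317), not called. The gene parp9, which forms a complex that ADP-ribosylates ubiquitin, was found under another symbol of the same gene ID. It was at 2.29, 2.94 and 2.8 CPM in the controls, 1.49, 1.71 and 1.15 in dhps and 1.86, 1.73 and 1.13 in eif5a1/2. All 3 controls were above the other 6 libraries, and the differences from control of -0.88 ± 0.27 in dhps and -0.77 ± 0.27 in eif5a1/2 were not called (adjusted p = 0.154 and 0.422).

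Across the group, dhps against control gave 1 call among 17 tested members, the rise of rnf213b, and none fell, where 1.29% of all genes were called. At an unadjusted p under 0.05, 1 member was higher and 5 were lower (19.5% of all genes passed in either direction). CPM did not overlap between the groups in 4 members, 2 higher and 2 lower, against 30.9% of all genes. The median log2 difference over the tested members was -0.23, with 12 negative and 5 positive, and it was 0.003 over all genes. Over the same 17 genes without control 2 the median was -0.13 and the number of members lower at an unadjusted p under 0.05 went from 5 to 1. The authors' deposited table lists 1 of 33 members with a q-value under 0.05, and 4.86% of all genes it lists there.

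In eif5a1/2 against control no tested member was called by edgeR or limma-voom, and DESeq2 called 1, isg20. Of 17031 genes, edgeR called 26 (0.153%), limma-voom 20 and DESeq2 215. At an unadjusted p under 0.05, 1 member was higher and 6 were lower, against 9.02% of all genes. Groups did not overlap in 6 members, all of them lower (rnf213b, isg20, isg15, irf9, socs1a and tap1), against 12.4% of all genes. For rnf213b this rests on 2, 7 and 3 reads in eif5a1/2 and 5, 7 and 6 in the controls. The median was -0.63, with 14 of 17 negative, and it was 0.013 over all genes. Over the same 17 genes without control 2 the median was -0.36 and 4 members were lower at an unadjusted p under 0.05. The paired fit of the 6 libraries tested fewer genes, and called 350 of 15845 genes and 2 of 13 members, isg20 and ifi30. Its median over these 13 was -0.35, and it was -0.38 in the same libraries without the block.

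Between the 2 targeted groups, in eif5a1/2 against dhps, 2 members fell, isg20 and rnf213b, and none rose, where 1.77% of all genes were called. At an unadjusted p under 0.05, 1 was higher and 3 were lower (14.5% of all genes), and the groups did not overlap in 5 members, 1 higher and 4 lower (20.9% of all genes). The median was -0.02, with 10 of 17 negative, beside 0.0 over all genes. The authors' deposited table lists 2 of 32 members with a q-value under 0.05 here (2.0% of all genes it lists), and 1 of 31, isg20, in eif5a1/2 against control (0.287%).

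**Figure D5:**
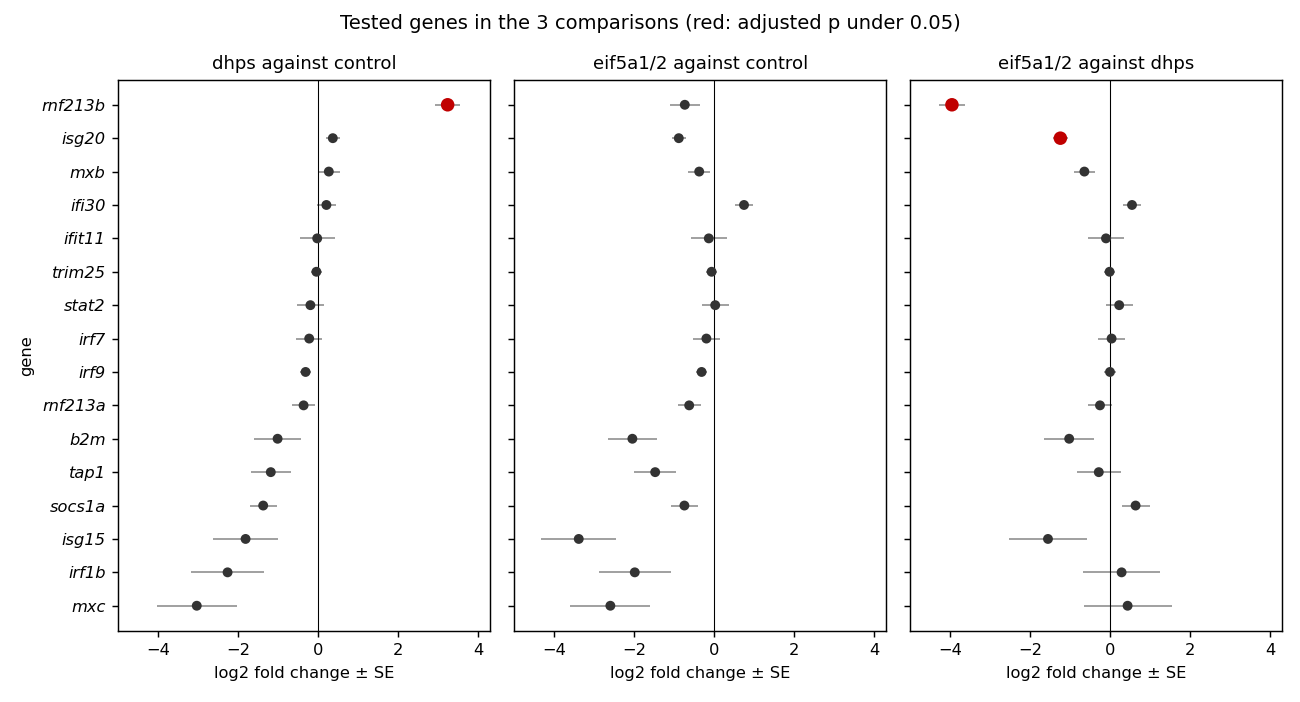
Log2 fold change with its SE (horizontal axes) of 16 tested genes, in rows, in the 3 comparisons; red marks an adjusted p under 0.05 from edgeR. The rise of rnf213b in dhps (3.23) and the falls of rnf213b (-3.96) and isg20 (-1.25) in eif5a1/2 against dhps are the 3 called values.

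The other parts of the pathway were read from lists of receptors and kinases, sensing adaptors, other IRF and STAT factors and other induced genes. Of 48 tested genes in them, none was called by edgeR in eif5a1/2 against control. An unadjusted p under 0.05 was reached there by 2 that were higher and 11 that were lower, and by 9.02% of all genes. In dhps against control 1 of the 48 rose, where 1.29% of all genes were called in either direction. In eif5a1/2 against dhps 1 of the 48 fell, where 1.77% of all genes were called. Both calls were of crfb1. It encodes a chain of the receptor for zebrafish virus-induced interferons, where it pairs with crfb5. Its level was 1.93, 3.09 and 2.1 CPM in the controls, 5.01, 5.5 and 6.65 in dhps and 1.16, 0.984 and 1.32 in eif5a1/2. The 3 groups did not overlap, with dhps highest and eif5a1/2 lowest, the order also seen in rnf213b and isg20. For rnf213b the step from control to eif5a1/2 rests on 2 to 7 reads a library. For crfb1 the difference of dhps from control was 1.26 ± 0.24 (adjusted p = 0.0389). This call was kept in 2 of 9 fits that left out a library, with log2 values of 1.12 to 1.5. That of eif5a1/2 from dhps was -2.31 ± 0.25 (adjusted p = 0.002) and was called in 9 of 9.

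Of 21 tested genes on the list of other induced genes, none was called by edgeR in dhps or in eif5a1/2 against control. At an unadjusted p under 0.05, 1 was higher and 9 were lower in dhps, where 19.5% of all genes passed in either direction. In eif5a1/2, 1 was higher and 8 were lower, where 9.02% passed. The medians were -0.5 and -0.45. These values include control 2, and none without it are given for this list. The lower ones included psme2 (-2.85 ± 0.75 in dhps and -2.3 ± 0.73 in eif5a1/2), psmb9a, a catalytic subunit of the immunoproteasome (-1.49 ± 0.45 and -1.38 ± 0.46), and tapbp.1, which holds MHC class I for loading (-1.51 ± 0.53 and -1.67 ± 0.54). Control 2 was the highest of the 9 libraries for these 3 genes, and for 14 of the 48 tested genes of the other lists, where 7.17% of all genes had their highest level in that library.

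Markers of the blood cells that express many of these genes were set beside them. Of 16 tested myeloid markers, lyz and npsn, granule proteins of neutrophils, fell in dhps against control (-1.24 ± 0.23, adjusted p = 0.0388, and -0.85 ± 0.16, adjusted p = 0.0377), calls kept in 3 and 2 of 9 fits that left out a library. The other 14 markers were not called, where 1.29% of all genes were called in either direction. Of the 16, 10 were positive, and the median was 0.12, beside 0.003 over all genes. The neutrophil marker lyz was at 21.0, 15.6 and 22.7 CPM in the controls, 7.84, 9.5 and 7.64 in dhps and 12.7, 9.19 and 17.2 in eif5a1/2. Over the 18 markers found, less apoeb, the summed level was 68.6 to 78.5 CPM in the controls, 55.2 to 63.8 in dhps and 63.1 to 69.5 in eif5a1/2. With apoeb, which made up most of it, the sum was 3690, 2860 and 3790 CPM in control 1, 2 and 3. It was then 2340 to 2830 in dhps and 2890 to 3830 in eif5a1/2. The macrophage marker mpeg1.1 was at 0.715, 0.682 and 0.699 CPM in the controls, 1.84, 1.28 and 2.2 in dhps and 0.851, 2.2 and 1.82 in eif5a1/2. It was lowest in the controls, with differences of 1.34 ± 0.39 in dhps (adjusted p = 0.138) and 1.23 ± 0.39 in eif5a1/2 (adjusted p = 0.362), not called. The differences of dhps from control for the leukocyte markers ptprc and lcp1 were 1.08 ± 0.38 and 0.53 ± 0.2 (adjusted p = 0.189 and 0.203), and that for the macrophage marker mfap4 was -0.49 ± 0.2 (adjusted p = 0.229). No marker of the list was at 0 in all of them. Control 2, at 71.0 CPM, lay between the other controls in the sum without apoeb, and under both in the sum with it. Of 15 tested p53 target genes, 9 rose in dhps against control, where 1.29% of all genes were called in either direction. Of the same 15, 2 fell in eif5a1/2 against control (0.153% of all genes) and 10 fell in eif5a1/2 against dhps (1.77%). The cell cycle inhibitor cdkn1a was at 13 to 18.9 CPM in the controls, 43.8 to 53 in dhps and 8.3 to 9.98 in eif5a1/2. The order of groups for cdkn1a was that of rnf213b, isg20 and crfb1, with few reads of rnf213b in control and eif5a1/2. The part of the p53 response in those differences was not tested.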

How the data were processed

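Gene-level expected counts (estimates that can split reads) and TPM per library were deposited by the authors, per the file headers, with the build GRCz11 per the submitters' processing notes. No source used here names the aligner, the counter or the use of strand. Further deposited tables give the authors' own log2 fold changes, p-values and q-values, and −log10 q-values. Here the expected counts were rounded and filtered with filterByExpr, leaving 17031 genes. They were scaled by TMM and tested with edgeR 4.0.16 (R 4.3.3, quasi-likelihood, robust) in 1 fit to 9 libraries with 6 residual degrees of freedom, with Benjamini-Hochberg adjustment over all genes tested. The SE derives from the F statistic. The script was tested on simulated data.

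The genes and lists were chosen with earlier results of these data known. Among members reported singly, values in every library are given for those with an adjusted p under 0.05, those with an unadjusted p under 0.05 and groups that do not overlap, and for a fixed set of 12 central members. Some members of the list are not reported here singly, and counts over the group include them. Of 6 symbols not in the table, 3 were found by gene ID under another symbol through an NCBI table (GRCz12tu, 22941 of 24614 IDs found), and the others were not analysed here. No sequence was used.

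Same-numbered control and eif5a1/2 libraries deviated together (correlations 0.403, 0.76 and 0.318), the rule for pairing, so that comparison was also fitted with a replicate block. Some of unlike number did so too, with 0.597 for control 3 and eif5a1/2 1 and 0.26 for control 1 and eif5a1/2 3. The rest lay between -0.679 and -0.387, and the numbers do not establish a pairing. Same-numbered libraries of control and dhps (-0.337, -0.413 and 0.0988) and of dhps and eif5a1/2 (-0.401, -0.286 and 0.121) were not paired. Alternatives were RLE scaling, library totals, no or a stricter filter, limma-voom (limma 3.58.1), DESeq2 1.42.0, an adjusted p under 0.01, the 2 groups alone, the replicate block, the length slope as a covariate, libraries of positive slope and each library left out; after seeing the data, leaving out control 2 with eif5a1/2 2, and the block in 2 groups alone, were added.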

Additional observations from a re-analysis of the deposited data

How the results depend on the processing

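In dhps against control the call of rnf213b was kept under every alternative run. The count of members called was 2 with library totals alone (isg20 joined, at 0.75, or 0.39 relative to all genes), 4 with the length slope as a covariate, 6 in the libraries of positive slope, 4 without control 2 and eif5a1/2 2 (without both, in what follows), and 2 with DESeq2 (mxc joined). For eif5a1/2 against control it was 1 with library totals, 1 with DESeq2 and 4 with the covariate, where 793 of 17031 genes were called. It was 2 without control 2 and eif5a1/2 2 (176 of 17102 genes) and 2 with the replicate block in the 2 groups alone (350 of 15845). For eif5a1/2 against dhps it was 4 without control 2 and eif5a1/2 2 (4918 of 17102 genes). It was 1 at an adjusted p under 0.01, and 1 to 3 with a library left out. Without control 2 and eif5a1/2 2 all dhps libraries and no other have a positive slope, so slope and morpholino cannot be told apart. In the libraries of positive slope, control 2 and eif5a1/2 2 are the only libraries of their groups and are assumed to vary like dhps. In that fit b2m, irf1b, isg15 and mxc are compared with control 2 alone, the library in which they were high. Its counts of calls are therefore given without a conclusion on any member.

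All genes called numbered 97, 14 and 133 in the 3 comparisons with library totals, 948, 793 and 1587 with the covariate, 6340, 176 and 4918 without control 2 and eif5a1/2 2, 898, 215 and 827 with DESeq2 and 64, 5 and 75 at an adjusted p under 0.01. Libraries of positive slope gave 74 and 595 in the comparisons of eif5a1/2 with control and dhps, the 2 groups alone 5 and 156, the replicate block over all libraries 14 and 183, and the block in 2 groups alone 350 against control. The block over all libraries changed no call of a member. Leaving out a library gave 44 to 807, 5 to 19 and 66 to 850 genes. The count for dhps against control reached 807 without control 2 and 616 without eif5a1/2 2. The low bound for eif5a1/2 against dhps came without dhps 3.

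The median over members in dhps against control was 0.14 with library totals (which shift the median of all genes by 0.365, so -0.22 relative to it), -0.04 with a stricter filter, -0.06 without control 2 and eif5a1/2 2, and -0.32 to -0.07 with a library left out, over the members each fit tests (18 without control 2). In eif5a1/2 against control it was -0.39 with no filter, -0.26 in libraries of positive slope and -0.34 without both. Over 13 members it was -0.38 in the 2 groups alone and -0.35 there with the block. With a library left out it was -0.63 to -0.41. The -0.41, without control 2, is over 18 members, while the -0.36 given above is over 17. In eif5a1/2 against dhps it was -0.22 with library totals, -0.29 with no filter, -0.27 with a stricter filter, -0.13 with the replicate block, -0.16 in libraries of positive slope, -0.16 without both and -0.24 to 0.01 with a library left out.

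Over all alternatives, 859 values of single named genes kept their direction and their side of the threshold, 34 came to pass it, 32 no longer passed it and 25 turned in sign. Signs turned in uncalled values. For dhps against control they did so with library totals for irf9 (0.05), stat2 (0.17) and irf7 (0.14), which relative to the shift of all genes were at -0.31, -0.2 and -0.23, and for b2m without control 2 and eif5a1/2 2 (0.03). Leaving out 1 library gave -1.45 to 0.02 for b2m, positive without control 2. For eif5a1/2 against control it gave -0.12 to 0.18 for stat2 (-0.08 without both). For eif5a1/2 against dhps, irf7 turned with library totals (-0.18, and 0.02 relative to all genes), the covariate (-0.06) and positive slopes (-0.1), and irf9 (0.02), mxc (-1.33) and ifi30 (-0.11) with positive slopes. Leaving out 1 library gave -0.11 to 0.11 for irf7, -0.09 to 0.11 for irf9, -0.2 to 0.57 for irf1b and -0.31 to 0.93 for mxc. The cause was not tested. Depth limits the 16 untested members.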

Other observations

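Other genes outside the group were also highest in control 2. The macrophage growth factor gene il34 was at 1.93, 7.44 and 2.8 CPM in control 1, 2 and 3 and at most 2.77 in the other 6 libraries. The chemokine gene cxcl18b was at 0.787, 3.09 and 0.854 CPM in the controls, 0.248, 0.534 and 0.419 in dhps and 0.464, 0.469 and 0.879 in eif5a1/2. The scavenger receptor gene scara3 was at 0.358, 3.3 and 0.777 CPM in the controls, 0.298, 0.32 and 0.209 in dhps and 0.232, 0.188 and 0.565 in eif5a1/2. The gene ifi44d, found under another symbol of the same gene ID, had 0, 3 and 1 reads in the controls and 0 in every other library. These genes were named after their values were seen.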
